A study of Mus musculus with 21 samples.

Results

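Tfrc-high capillary-venous cells are brain endothelial cells picked here from a single-cell RNA library by their own counts: at least 3 unique molecular identifiers (UMIs, each marking 1 captured RNA molecule) of Tfrc, 0 of Mfsd2a and 0 of Plvap, and fewer than 2 genes detected from each of a venous set (Ackr1, Lcn2, Vcam1, Lrg1) and an arterial set (Gkn3, Bmx, Vegfc, Fbln5, Mgp). Of 9405 deposited barcodes, 8645 had at least 500 genes and at most 10% mitochondrial UMIs and were kept, and 340 of these, 3.93%, were selected. The library came from sorted endothelium of C57BL/6J mice aged 2 to 4 months, and the labels do not say how many mice went into it. Bulk RNA libraries of endothelium from brain, lung and liver of mice of the same strain and age range, 3 per tissue, served as a second measurement that the selection did not use. The mice carry no transgene or treatment in the labels. For both assays tissue was digested after perfusion, with a spin to clear myelin for brain alone, and the sort kept live CD31+ cells that lacked PDGFRβ and CD45.

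Tfrc encodes the transferrin receptor, which binds iron-loaded transferrin in blood, enters the cell in clathrin-coated vesicles, releases iron in endosomes and recycles to the surface. It is abundant on brain capillaries and is used as a route for carrying antibodies across the blood-brain barrier. Brain endothelial genes change gradually along the vessel from artery over capillary to vein. Mfsd2a, a lipid transporter that restrains transcytosis, is highest in capillaries, whereas Slc38a5 and Nr2f2 lie towards the venous end.

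Selection on Tfrc fixed its level, which is therefore given as a description. The 340 cells held 1776 Tfrc UMIs, or 1093 CPM (UMIs of a gene per 1000000 UMIs; 95% counting interval 1043 to 1145). Of the selected cells, 124 had exactly 3 Tfrc UMIs and 79 had 4, and the highest had 33. Scaled to each cell's own total, Tfrc ran from 226 CPM through a median of 1111 to 7656 CPM. Just inside the threshold, the 124 cells with exactly 3 UMIs had 685 CPM, and just outside it 219 cells with 2 UMIs that passed every other condition had 522 CPM. All intervals on single-cell values cover counting error only, because with 1 library there is no replicate and no test.

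The exclusions removed most Tfrc-rich cells. Of the kept cells, 2062 (23.9%) had at least 3 Tfrc UMIs, and 16.5% of these passed. Mfsd2a was detected in 1694 of the 2062, at least 2 arterial genes in 73, at least 2 venous genes in 41 and Plvap in 12. Among the 340, 31 cells had 1 venous gene of the rule and 22 had 1 arterial gene. The share of kept cells with at least 3 Tfrc UMIs was 11.2%, 22.2%, 25.7% and 36.4% over 4 equal classes of cells from the fewest to the most UMIs, while the selected cells made up 3.84%, 4.26%, 4.40% and 3.24% of these classes. Depth therefore had to be allowed for.

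The comparison cells were 3779 kept cells with 0 Tfrc UMIs and at least 1 UMI of Cldn5, the main tight-junction claudin of brain endothelium. Their median was 4138 UMIs per cell against 4458 in the Tfrc-high cells, and 3755 of them lay within the range of the Tfrc-high cells, 761 to 17342 UMIs. They were weighted to the same distribution of UMIs. A gene was counted as higher or lower when its CPM differed at least 1.5 times, the higher value reached 20 CPM and the 95% counting intervals did not overlap. Of 6858 genes compared, 180 (2.62%) were higher and 250 (3.65%) lower in the Tfrc-high cells, and the median fold was 1.01. Only 1176 comparison cells met the 4 exclusions themselves; against the 1162 of these within the UMI range, 200 of 6816 genes (2.93%) were higher and 196 (2.88%) lower, of which 130 and 140 were counted in the first comparison too.

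The endothelial identity of the Tfrc-high cells was plain in their counts. Cldn5 was detected in 338 of 340 cells, Slco1a4, an organic anion transporter of the barrier, in 339, Flt1, a VEGF receptor, in 339, and Slc2a1, the barrier glucose transporter, in 337. The adhesion molecule Pecam1 was at 790 CPM against 976 in Tfrc-negative cells and the junctional cadherin Cdh5 at 597 against 723, both short of the 1.5-fold mark. None of 24 pan-endothelial genes was counted as higher or lower, with a median fold of 0.942. With 2.62% of all genes higher and 3.65% lower, few calls are due in a list of this size. At 1800 UMIs per cell, 310 Tfrc-high cells had a median of 1104 genes and 3212 Tfrc-negative cells 1097.

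Of 14 genes listed as capillary-venous 10 were higher and none lower, with a median fold of 2.09. Among all genes compared 2.62% were higher and 3.65% lower. This list and the others were chosen with earlier results of these data known, so such counts are a description and not a test. Car4, a carbonic anhydrase on the capillary surface, reached 1237 CPM (1183 to 1292) against 494 (484 to 505). Slc38a5, a glutamine transporter, was at 210 CPM (188 to 233) against 69.1 (65.2 to 73.2), a 3.04-fold difference. Il1r1, the interleukin-1 receptor, was at 76.9 against 23.1 CPM. Further higher members were Slc16a1, Nampt, Ctsc, Chn2, Rflnb and Slc7a5, at 1.54 to 2.13 times. Itm2a, Slc16a4, Slco1c1 and Tmem252 were between 0.795 and 1.35 times. Against comparison cells with the same exclusions the count was again 10 of 14. Against cells with at least 3 Tfrc UMIs and Mfsd2a, 3 of the 14 were higher and none lower. Against venous-marker cells (at least 2 venous genes of the rule), Car4, Slc7a5 and Slco1c1 were higher and 5 were lower. The list is thus not one of venous-side genes alone.

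The number of these genes detected per cell was also higher; it follows from each gene's own detection rate, and whether they occur together beyond that was not tested. At 1800 UMIs per cell, a Tfrc-high cell had on average 5.44 of the 14 genes detected, a Tfrc-negative cell 4.01 and a cell with at least 2 arterial genes 3.01. At least 7 were found in 27.7% of 310 Tfrc-high cells, in 8.22% of 3212 Tfrc-negative cells and in 1.04% of 770 arterial-marker cells. At this depth Slc38a5 had a UMI in 27.7% (exact interval 22.8% to 33.1%) of Tfrc-high cells, 10.1% of Tfrc-negative cells and 2.34% of arterial-marker cells, the type that should lack it. Without thinning the shares were 41.2%, 17.1% and 6.76%, at median depths of 4458, 4138 and 6627 UMIs. Car4 followed the same order, with 74.8%, 44.6% and 10.1% at equal depth.

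**Figure D1:**
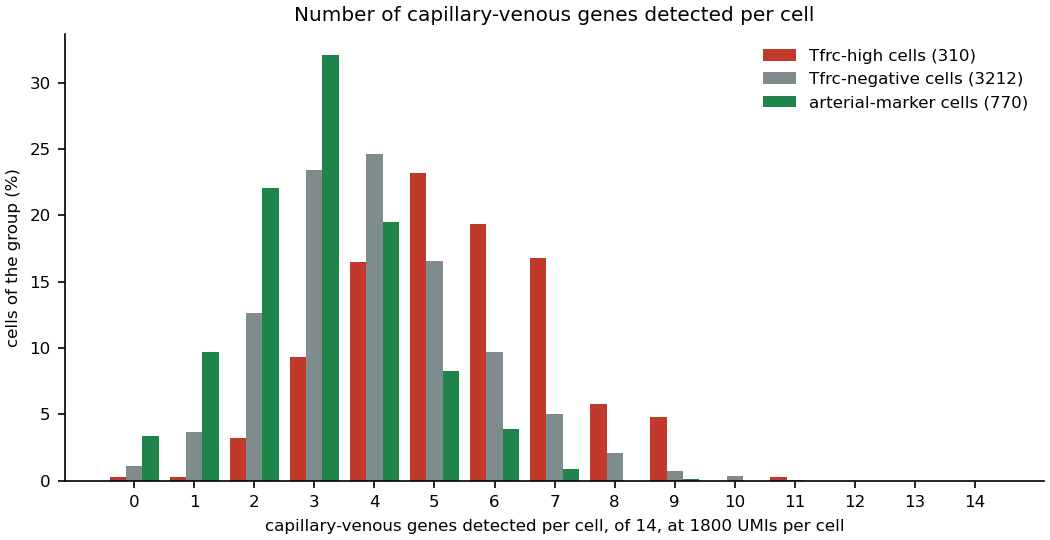
Number of the 14 listed capillary-venous genes detected per cell (horizontal axis) against the percent of cells of each group (vertical axis), after every cell was thinned to 1800 UMIs; numbers of cells are in the legend. The Tfrc-high cells (mean 5.44) lie to the right of Tfrc-negative cells (4.01) and of arterial-marker cells (3.01).

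Transporters of the blood-brain barrier made up a second, overlapping group, with 9 of 23 compared solute carriers higher and none lower. Slc38a5, Slc16a1 and Slc7a5 were counted in both lists. Against cells with at least 3 Tfrc UMIs and Mfsd2a none of the 23 was higher or lower, with a median fold of 0.895. The difference was thus from Tfrc-negative cells and not from other Tfrc-rich cells. Slc38a5 led, followed by Slc16a1, which carries lactate and ketone bodies, at 371 against 176 CPM. Slc40a1, ferroportin, was at 425 against 219 CPM. The organic anion transporter Slc22a8 and the cationic amino acid transporter Slc7a1 were 1.74 and 1.70 times higher, and the thiamine transporter Slc19a3 1.63 times. Slc2a1 pointed the other way without reaching the mark, at 2384 CPM (2309 to 2460) against 2855 (2830 to 2881). Slco1a4 was at 3636 against 2989 CPM, and Abcb1a, the drug efflux pump P-glycoprotein, at 1634 against 1383 CPM. Against cells with the same exclusions 8 solute carriers were higher and 1 lower, and Slc2a1 was at 2384 against 2280 CPM, so its direction turned with the choice of comparison cells.

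Few genes of the machinery around the transferrin receptor were counted, beside 2.62% higher and 3.65% lower among all genes compared. In lists this short, 1 higher and 1 lower gene does not set the list apart from all genes. Of 36 listed genes of iron handling, 18 reached 20 CPM in either group, 1 was higher and 1 lower, and against cells with the same exclusions 3 were higher and none lower. The gene counted as higher in both was Slc40a1, the exporter that passes iron out of the cell. The lower one was Cp, ceruloplasmin, a ferroxidase, at 119 against 223 CPM, and its fold was 0.816 against cells with the same exclusions, too little to count. In that comparison Slc39a8, a metal ion importer, was at 127 against 79.3 CPM and Mcoln1, a cation channel of lysosomes, at 43.1 against 26.3 CPM, and both counted as higher. The ferritin chains Fth1 and Ftl1, which store iron, were at 1253 against 1384 and 792 against 807 CPM. Slc11a2, which moves iron out of endosomes, was too low to compare at 15.4 (9.96 to 22.7) against 11.7 CPM.

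Of clathrin endocytosis and recycling genes 36 were compared, of which 1 was higher and 1 lower, with a median fold of 1.00. These counts are near the shares of all genes, 2.62% and 3.65%. Itsn1, an endocytic scaffold, was at 57.8 against 21.2 CPM, a fold of 2.725, and 2.734 against cells with the same exclusions. Ehd4, a recycling ATPase, was at 66.5 against 123 CPM but missed the mark against cells with the same exclusions, at 0.726. The clathrin heavy chain Cltc, the adaptor Ap2m1 and the recycling GTPase Rab11a lay between 0.982 and 0.997 times. Among 9 compared genes of caveolae and vesicle restraint only Ehd2, which steadies caveolae, was counted, at 84.3 against 151 CPM. Of 13 receptors of blood-borne ligands only the leptin receptor Lepr was higher, at 33.8 against 18.5 CPM, with the insulin receptor Insr at 1.19 and the Fc receptor Fcgrt at 1.38 times. Against cells with at least 3 Tfrc UMIs and Mfsd2a, no gene of these lists was counted. Itsn1, Ehd4, Ehd2 and Lepr were at 40.2, 64.0, 82.7 and 34.9 CPM there.

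**Figure D2:**
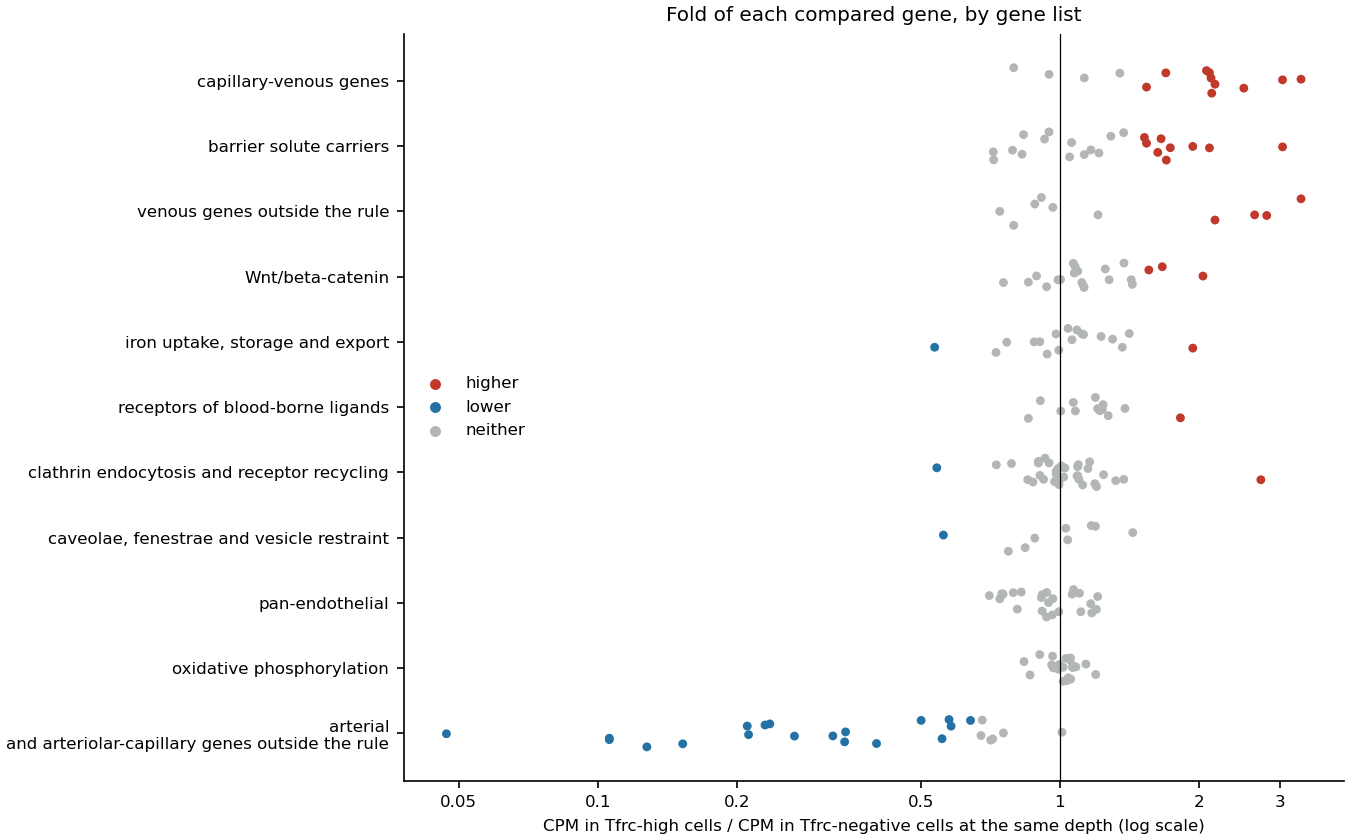
Ratio of CPM in Tfrc-high cells to CPM in Tfrc-negative cells at the same depth (horizontal, log scale) for each compared gene of 11 lists (rows); red genes were counted as higher, blue as lower, grey as neither, the vertical scatter within a row has no meaning, and Cytl1, with 0 UMIs in Tfrc-high cells, stands at the upper end of its interval. Higher genes gather in the capillary-venous and solute carrier rows and lower genes in the arterial row.

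The leading genes spread over many cells had varied roles. Ndnf, a secreted neuron-derived neurotrophic factor, was at 306 CPM (280 to 335) against 81.5 (77.3 to 85.9) and was detected in 165 of the 340 cells. Wnt5a, a Wnt ligand, was at 76.3 against 18.3 CPM, and Flrt2, a membrane guidance protein, at 109.5 against 28.3 CPM. The sodium pump subunit Atp1b1 had a 6.12-fold difference but rested on 37 UMIs in 23 cells. The secreted ribonucleases Ang and Rnase4 were 3.37 and 2.88 times higher; their genes overlap, so their UMIs may be shared between them. Tmsb10, an actin-binding peptide, was at 1585 against 565 CPM. Further leading genes, among them Cacna1e, Nsg1, Unc13c and Lmntd1, were 2.75 to 3.39 times higher. Not all of them set the Tfrc-high cells apart from other Tfrc-rich cells. In cells with at least 3 Tfrc UMIs and Mfsd2a, Ndnf was at 323 CPM (309 to 339). Unc13c was at 31.1 CPM there and 35.1 in the Tfrc-high cells, with overlapping intervals. Wnt5a and Flrt2 were lower there, at 38.6 and 78.1 CPM.

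Wnt/β-catenin genes, which maintain the barrier in brain endothelium, were higher in 3 of 21 and lower in none. Apcdd1 and Nkd1, feedback inhibitors of the pathway, were at 564 against 276 and 216 against 129.5 CPM, and Znrf3, which removes Wnt receptors, at 34.5 against 22.1 CPM. In cells with at least 3 Tfrc UMIs and Mfsd2a, Apcdd1, Nkd1 and Znrf3 were at 605, 246.5 and 33.4 CPM. None of the 21 genes was counted against those cells. The transcription factor Lef1 was 1.25 times higher, short of the mark. None of 21 genes of oxidative phosphorylation and none of 14 genes of sterol synthesis was counted. Beside 2.62% higher and 3.65% lower among all genes, that does not set these short lists apart. Of 8 compared cell cycle genes 3 were lower, namely the cyclins Ccnd1 and Ccnd2 and the inhibitor Cdkn1c. The same 3 were lower against cells with the same exclusions. They were at 30.8, 38.8 and 127 CPM in the Tfrc-high cells and at 140, 253 and 371 CPM in cells with at least 2 arterial genes. Cells with at least 3 Tfrc UMIs and Mfsd2a had 41.8, 44.5 and 110 CPM, and none of the 8 was counted against them.

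Of 10 compared venous genes outside the rule, 4 were higher and none lower, beside 2.62% higher and 3.65% lower among all genes. The 4 included Nr2f2, the transcription factor of venous fate, at 69.5 against 26.3 CPM, with Il1r1 and Tmsb10 from the groups above. The rule removed cells with 2 or more venous genes from the Tfrc-high cells and not from the Tfrc-negative cells. The selection itself therefore tilts this list, and the extent of venous identity cannot be read from it. Vwf, the clotting factor of larger veins, was at 132 against 136 CPM, Emcn at 630 against 690 CPM and Icam1 at 146.5 against 121 CPM. Against cells with the same exclusions 5 of 10 were higher, and Vwf was then at 132 against 79.2 CPM. Arterial genes were the opposite, with 19 of 25 lower and none higher and a median fold of 0.344. The rule removed cells with 2 or more arterial genes from the Tfrc-high cells and not from the Tfrc-negative cells, so the selection itself tilts this list. Against cells with the same exclusions 13 of 22 arterial genes were lower.

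Sema3g, an arterial semaphorin, was at 25.8 CPM (18.6 to 34.9) against 244 (237 to 252), and at 180 CPM in Tfrc-negative cells with the same exclusions. Efnb2, the arterial ephrin, was at 30.2 against 142 CPM, Unc5b, a netrin receptor, at 24.0 against 90.1 CPM, and Alpl, alkaline phosphatase, at 38.2 against 181 CPM. Tm4sf1 was at 374 against 1087 CPM. Cytl1 and Stc1 had 0 UMIs in the Tfrc-high cells, with intervals up to 2.27 CPM, against 21.4 and 20.5 CPM. In Tfrc-negative cells with the same exclusions Cytl1 was also at 0, and Stc1 was at 7.38 CPM, too low to compare. Stc1 was highest in Plvap cells, at 276 CPM against 42.6 in arterial-marker cells. The rule removed cells with Plvap from the Tfrc-high cells and not from the Tfrc-negative cells. Nos3, endothelial nitric oxide synthase, was level at 1.01 times.

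The genes that most resembled Tfrc were sought among cells that passed the exclusions, in classes of 0, 1, 2 and at least 3 Tfrc UMIs with 1176, 435, 219 and 340 cells, all weighted to the same depth. Of 6531 genes 434 (6.65%) went up at every step, and 85 of the 180 higher genes did so; both counts rest on the same Tfrc-high cells. The 10 with the largest rise included Wnt5a, Gpr85, Ndnf, Il1r1, B4galt5, Kcp, Flrt2, Ang and Hs3st1. Ndnf was at 90.4, 149, 217 and 306 CPM over the 4 classes, and Wnt5a at 16.9, 22.3, 51.3 and 76.3 CPM. Car4 was at 559, 747, 980 and 1237 CPM and Slc38a5 at 82.1, 127.5, 164 and 210 CPM. Slc2a1 kept to 2280, 2428, 2359 and 2384 CPM, with no order.

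**Figure D3:**
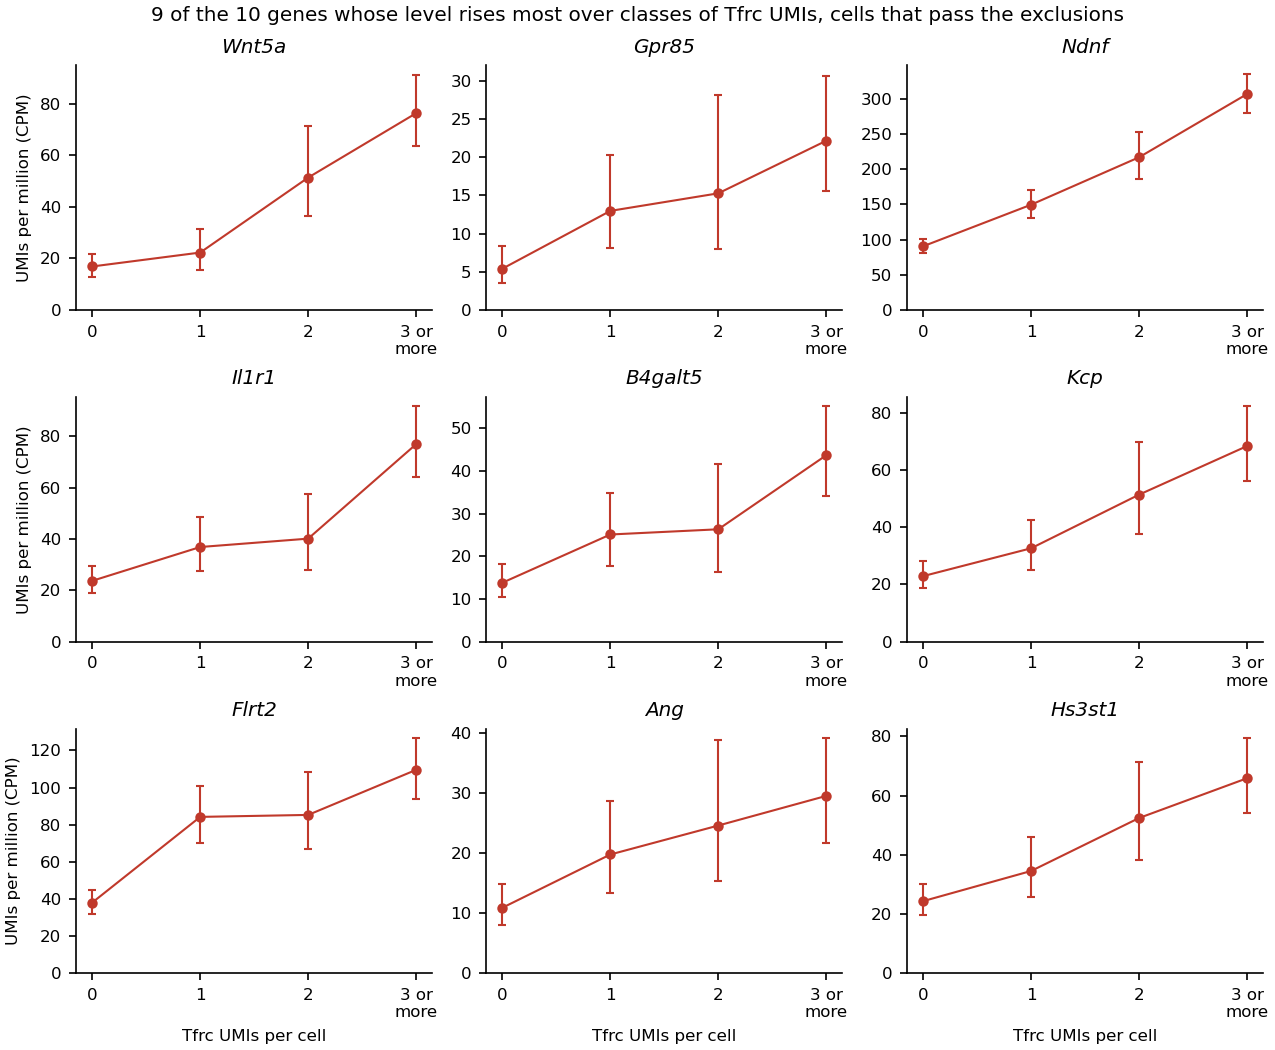
CPM (vertical axes, from 0, bars are 95% counting intervals) of 9 of the 10 genes with the largest rise over cells with 0, 1, 2 and 3 or more Tfrc UMIs (horizontal axes) that passed the exclusions. Each gene goes up at every step, as the choice of genes requires, and the intervals of neighbouring classes often overlap.

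The Tfrc-high cells also differed among themselves. The 137 cells with 5 or more Tfrc UMIs had a median of 4950 UMIs, and the 203 with 3 or 4 had 3869, so the values were not at equal depth. Nr2f2 was at 93.1 CPM (72.3 to 118) in the former and 50.3 (36.7 to 67.3) in the latter. Car4 was at 1455 against 1059 CPM and Tmsb10 at 1812 against 1399. Slc38a5 was at 216 against 205 CPM, within the counting intervals.

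Set beside other groups of the same library, the Tfrc-high cells were level with Tfrc-rich cells with Mfsd2a in Car4 and Slc40a1, and lay between these and venous-marker cells in Slc38a5, Nr2f2 and Wnt5a. Tfrc at equal depth was 1120 CPM in 1594 cells with at least 3 Tfrc UMIs and Mfsd2a, 448 in 3680 cells with at least 2 Mfsd2a UMIs (which overlap the former), 396 in 105 venous-marker cells, 107 in 777 arterial-marker cells and 74.6 in 58 Plvap cells. Car4 was 1237 CPM in the Tfrc-high cells and 1230 in the Tfrc-rich cells with Mfsd2a, which did not differ beyond their intervals, and 603 and 69.9 CPM in venous-marker and arterial-marker cells. Slc40a1 was 425 and 448 CPM in the first pair, also overlapping. Slc38a5 was 210 CPM in the Tfrc-high cells, between 167.5 in the Tfrc-rich cells with Mfsd2a and 726 in venous-marker cells. Nr2f2 followed with 69.5, 44.7 and 298 CPM, and Wnt5a with 76.3, 38.6 and 229 CPM.

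**Figure D4:**
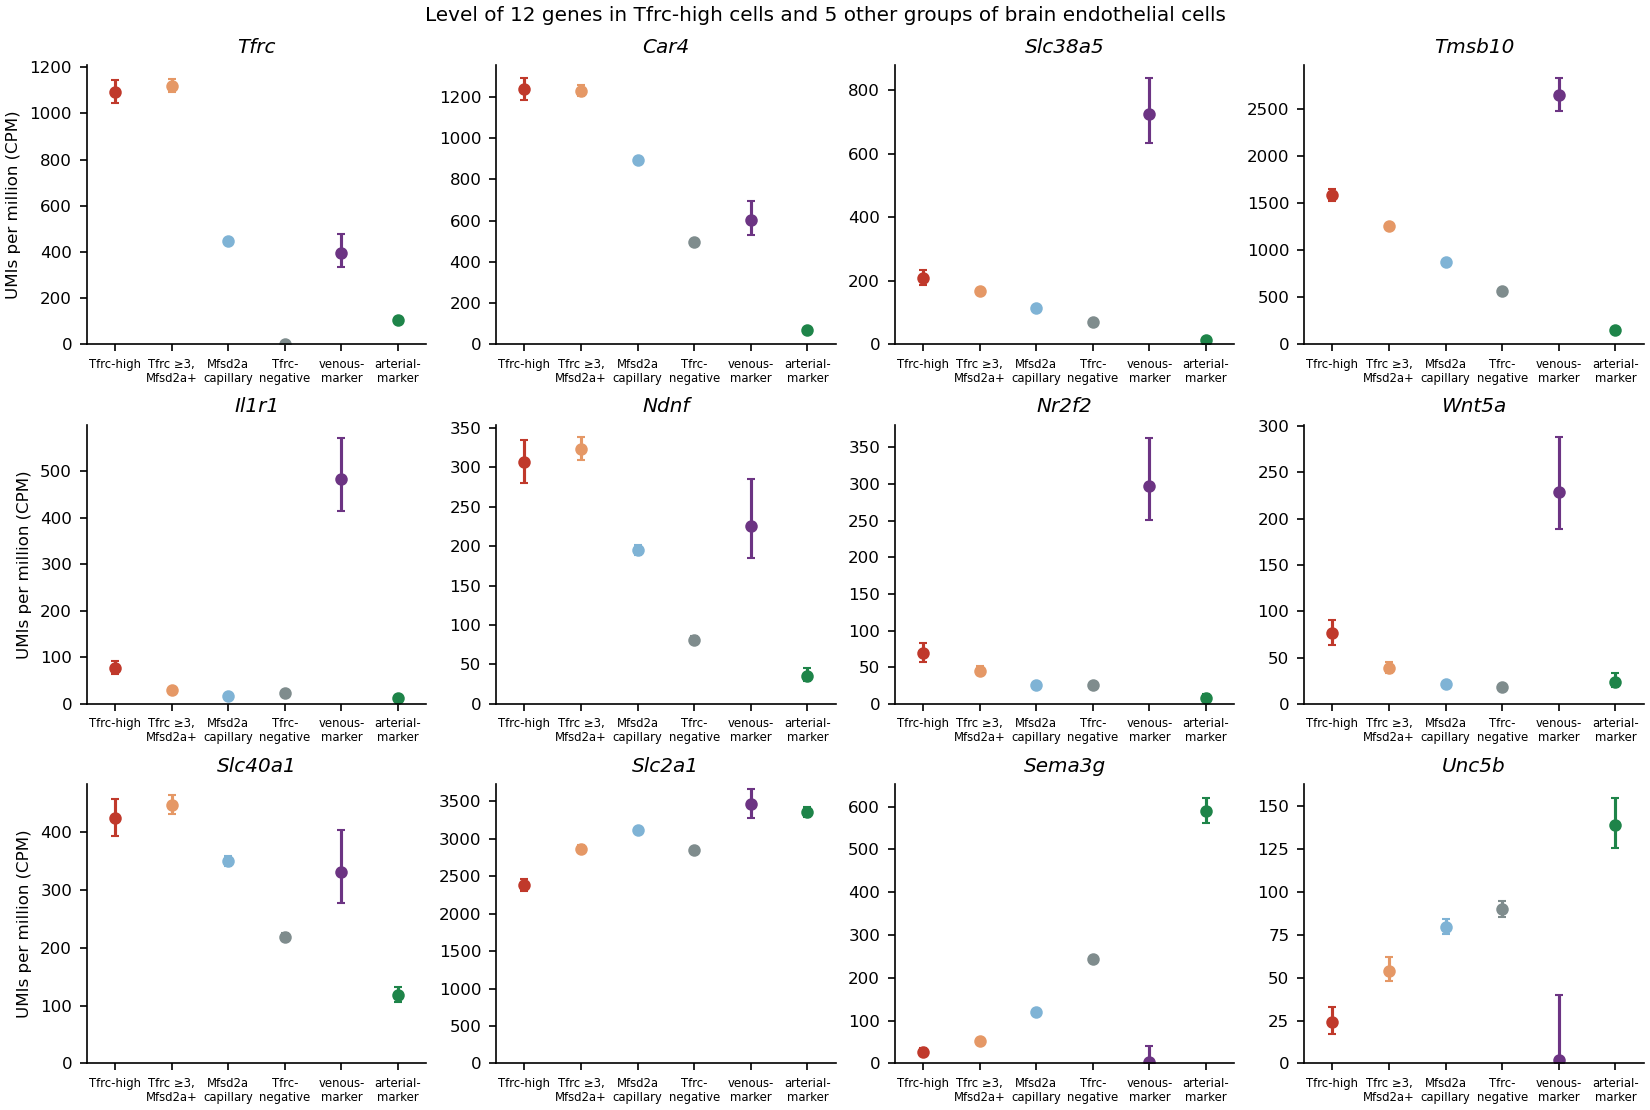
CPM (vertical axes, from 0) of 12 genes in the Tfrc-high cells and 5 other groups of kept cells, weighted to the depth of the Tfrc-high cells; bars are 95% counting intervals and the groups other than the Tfrc-high cells overlap in part. Slc38a5, Il1r1 and Nr2f2 are highest in venous-marker cells and next in Tfrc-high cells, while Sema3g and Unc5b are highest in arterial-marker cells.

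Against Tfrc-rich cells with Mfsd2a, 60 of 6816 genes (0.880%) were higher in the Tfrc-high cells and 57 (0.836%) lower. The largest higher folds were those of Acta2, Olfm5, Tpm2, Tagln, Pln, Myl9 and the erythroid markers Hbb-bt, Hbb-bs, Hba-a1 and Hba-a2. For each of these genes, and for Mylk, 1 Tfrc-high cell held 50.9% to 100% of the UMIs. The count of 60 thus includes genes that rest on single cells. Mfsd2a was absent from the Tfrc-high cells by the rule and present in the Tfrc-rich cells with Mfsd2a by definition. The selection itself therefore tilts genes that vary with Mfsd2a, in either direction. The genes named from this comparison and the next were chosen after their values were seen. Il1r1 was 2.67 times, Wnt5a 1.98 times and Nr2f2 1.56 times higher. Of 20 compared genes of the arterial and arteriolar-capillary list, 6 were lower and 2 higher. The lower ones included Efnb2 at 30.2 against 75.4 CPM, Unc5b at 24.0 against 54.1 and Dll4, a Notch ligand, at 75.1 against 134 CPM. The higher ones were Crip1 and Stmn2, the latter at 37.5 against 15.7 CPM, and 1 cell held 25.8% and 24.6% of their UMIs. Of 22 immediate-early and stress genes 5 were higher and none lower, and Fos, Junb, Fosb, Ier3 and Atf3 were 1.54 to 1.81 times higher. Such genes respond to tissue dissociation, and their part in the other differences was not tested. Against Tfrc-negative cells 1 of 22 genes of this kind, Ier3, was higher and 1, Nr4a1, lower.

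Against 105 venous-marker cells, 192 of 7020 genes (2.74%) were higher and 309 (4.40%) lower. The higher genes again included Acta2, Tagln and the same erythroid markers, with 50.9% to 100% of their UMIs in 1 cell. Cxcl12, a chemokine of the capillary and arterial side, was at 2543 against 331 CPM, Slco1c1, the thyroxine transporter, at 1722 against 818 and Car4 at 1237 against 603. Of 12 compared venous genes outside the rule 8 were lower and 1, Emcn, higher. Icam1 was at 146.5 against 3428 CPM, Vwf at 132 against 1286, Il1r1 at 76.9 against 484 and the prostaglandin synthase Ptgs2 at 8.62 against 1016 CPM. Sele, E-selectin, had 0 UMIs against 351 CPM. The rule excluded venous-marker cells, so genes that accompany its venous set were bound to be lower.

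Markers of other cell types were found in few Tfrc-high cells, and the largest folds of all rested on single cells. Acta2, Tagln, Tpm2, Pln and Myl9, contractile genes of smooth muscle, had the 5 largest folds, but 92.3% to 100% of their UMIs in the Tfrc-high cells came from 1 cell each. Of 13 mural markers, 3 or more were detected in 3 Tfrc-high cells (0.882%) and in 0.423% of comparison cells; their summed level was 340 against 111.5 CPM, and the pericyte genes Kcnj8 and Abcc9 were at 0. Olfm5 had 75.7% of its UMIs in 1 cell. Erythroid markers, at 3 or more of 10 in 25 Tfrc-high cells (7.35%) and 7.52% of comparison cells, had a median of 247 against 287 CPM per cell, with Slc4a1 and Epb42 among those at 0, and 1 cell held 50.9% of Hbb-bs UMIs. At least 3 astrocyte markers were detected in 1 Tfrc-high cell, and no Tfrc-high cell had 3 markers of microglia, neurons, oligodendrocytes, fibroblasts, leukocytes or choroid plexus; Ptprc, which encodes CD45, was at 0. The part of these cells in the other results was measured by leaving them out. Without 29 Tfrc-high cells and 330 comparison cells that carried 3 or more markers of any other type, 180 genes were higher and 232 lower; Car4 was then 2.55 times, Slc38a5 3.03 times and Atp1b1 6.09 times higher, whereas Acta2 and Tpm2 were at 0.

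Bulk RNA of sorted endothelium gave replicated values for Tfrc and for the 20 leading higher genes. The 9 libraries held 2992101 to 25690571 counts, and the labels call them biological replicates without naming animals. Pecam1 was present in all 9, from 649 CPM in a liver library to 1664 CPM in a lung library. A lower bulk value cannot tell fewer cells of a type from less RNA per cell. Tfrc was at 736, 306 and 714 CPM in brain, at 9.43, 1.62 and 12.3 in lung and at 2.49, 0.154 and 0.513 in liver. Every brain library was above every lung and liver library. The log2 fold change was 6.18 ± 0.96 (SE, n = 3 per tissue; edgeR quasi-likelihood adjusted p = 0.00182) against lung and 9.13 ± 1.097 (adjusted p = 0.000218) against liver.

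Of the 20 leading genes 18 passed the filter on low counts; Olfm5 and Lmntd1 did not. In brain 7 were higher than in lung and none lower, with 5.05% of all 13216 genes called higher. Against liver 6 were higher and 1 lower, with 7.45% of genes called higher. The median log2 fold change of the 18 was 1.99 against lung and 1.26 against liver, where the median of all genes was 0 and 0.00751. The leading genes had to reach 20 CPM in brain cells and the 13216 genes did not. The shares and medians of all genes are therefore not a like-for-like background, and no conclusion is drawn from the contrast. Without the 6 genes that had most of their UMIs in 1 cell, an alternative chosen after the data were seen, 13 were tested, of which 7 and 5 were higher.

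Slc38a5, Ndnf, Wnt5a and Unc13c, the last a synaptic priming protein, were called higher in brain against both tissues. Slc38a5 was at 32.8, 60.3 and 29.0 CPM in brain, 0.738, 0 and 0.264 in lung and 0 in every liver library, at least 821-fold higher than liver if 3 counts over the group are allowed there (edgeR adjusted p = 0.00136 and 8.38e-05). Ndnf was at 247, 238.5 and 188 CPM in brain and at no more than 3.77 elsewhere, with log2 fold changes of 6.82 ± 1.12 (edgeR adjusted p = 0.00179) against lung and 9.06 ± 1.23 (adjusted p = 0.000299) against liver. Wnt5a was at 66.9, 38.4 and 46.0 CPM in brain and 0 in every lung library, at least 379-fold higher by the same floor, and 0.770 was its highest liver value (edgeR adjusted p = 0.00215 and 0.00311). Unc13c was at 167, 63.5 and 129 CPM in brain and 0 in all 6 other libraries. For these 4 genes every brain library lay above every lung and liver library.

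Other leading genes were also found in lung or liver endothelium. Flrt2 was at 174, 284 and 114 CPM in brain, above every other library, and was called against lung but not against liver (edgeR adjusted p = 0.0161 and 0.243). Il1r1 was called higher than in lung, at 97.5, 187 and 183 against 38.2, 11.01 and 49.1 CPM, but was at 220, 54.5 and 141 CPM in liver, where the ranges overlapped (edgeR adjusted p = 0.0196 and 0.89). Rnase4 was higher in brain than lung and lower than in liver, at 59.5 ± 1.79, 14.2 ± 4.69 and 179 ± 15.3 CPM (SD, n = 3 each). Tmsb10 was at 20.2 to 34.5 CPM in brain and 16.1 to 24.3 in lung, which overlapped. Nsg1 was at 0.283 to 7.44 CPM in brain and 15.9 to 36.5 in lung, a difference that did not pass (edgeR adjusted p = 0.102).

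**Figure D5:**
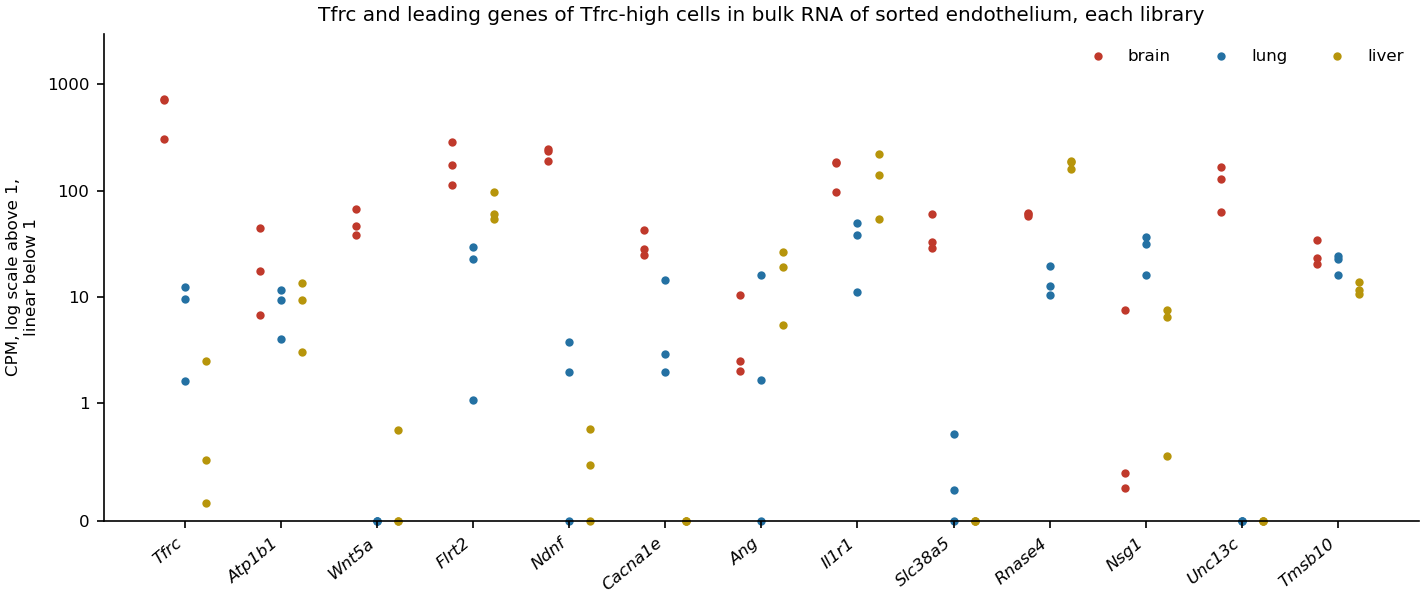
CPM of each bulk RNA library (points; vertical axis logarithmic above 1 and linear below) for Tfrc and 12 of the 13 tested leading genes that were spread over cells, in brain, lung and liver endothelium, 3 libraries each. Brain libraries lie above all others for Tfrc, Wnt5a, Flrt2, Ndnf, Cacna1e, Slc38a5 and Unc13c and within or below them for Ang, Nsg1 and Rnase4 against at least 1 tissue.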

How the data were processed

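The deposited single-cell values were raw UMI counts per gene and barcode, and the bulk values raw counts per gene symbol, per the file headers and the values. Cell Ranger 1.2.0 and HTSeq 0.6.1 are among the tools, and mm9 and mm10 are the builds, that the submitters' processing notes list; which served which assay, filters on barcodes before deposit and strand use are not given in the sources used here. The ATAC-seq libraries were not used here. The cells and the 29 gene lists were chosen with earlier results of these data known.

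UMIs were summed over cells with Python 3.11.15, with exact Poisson intervals for the Tfrc-high cells and Fay-Feuer intervals for comparison cells weighted over 10 UMI bins (5 for venous-marker and Plvap cells). The 13 genes of the rule were left out of counts. Cells with at least 3 Tfrc UMIs and Mfsd2a met the other 3 exclusions. The remaining groups needed Cldn5: venous-marker or arterial-marker cells had at least 2 genes of their own set, fewer than 2 of the other and no Plvap, and Plvap cells at least 2 Plvap UMIs. No doublet caller was run; cells with 3 or more markers of another type were left out as an alternative. Cells were thinned to 1800 UMIs for shares.

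Bulk counts were fitted with edgeR 4.0.16 (TMM, filterByExpr, robust quasi-likelihood, all 9 libraries, a mean per tissue; calls needed p under 0.05 after Benjamini-Hochberg adjustment and a log2 change of 1 or more either way), with DESeq2 1.42.0 as an alternative. Named genes were the 20 with the largest fold each way, unnamed and mitochondrial genes left out, up to 4 per list and a set of fixed genes; others are list members or named as chosen later. Both procedures were tested on simulated data. The single-cell simulation held counting error only, with no genes concentrated in single cells, so it says nothing about such genes. Some genes are not reported here.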

Additional observations from a re-analysis of the deposited data

How the results depend on the processing

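Selection at 4 Tfrc UMIs gave 216 cells and at 2 UMIs 560, a floor of 1000 genes gave 315 and a limit of 5% mitochondrial UMIs 297. The count of higher genes stayed within 1.5 times of 180 under all 7 alternatives tried, and that of lower genes under 6. With the mean of each cell's own CPM in place of summed counts, 154 genes were lower, and the cause was not tested. The genes counted were not all the same. With every cell thinned to the same number of UMIs, 160 genes were higher and 203 lower. Only 95 of the 180 higher genes and 140 of the 250 lower genes were among them. Under the mean of each cell's own CPM, 129 of the 180 and 140 of the 250 were counted again. Without weighting to the same UMIs, 175 and 242 were. Of 496 folds of named genes under alternatives, 426 stayed within their counting interval and 14 changed direction. Acta2 and Tpm2 were at 0 both at 4 Tfrc UMIs and without cells carrying markers of another type; under the same pair of settings Tagln was at 0.550 and 0.472 and Myl9 at 0.723 and 0.644 times. Without marker-carrying cells Pln was at 0.892, Hbb-bt at 0.931 and Ttr at 1.14 times. Olfm5 was at 0 with 4 Tfrc UMIs and at 0.790 against comparison cells with the same exclusions, where Hbb-bt was at 0.641. In bulk RNA the Tfrc calls held under all 10 alternatives each, with log2 fold changes of 5.76 to 6.61 (lung) and 8.63 to 10.7 (liver) when 1 library was left out, and 5 to 8 and 5 to 6 leading genes were higher. With the replicate number as a block the values were 6.47 and 9.56, with 7 and 6 leading genes higher. Same-numbered libraries did not deviate together over genes (correlations of -0.00325 to 0.00694). That cannot settle whether they shared an animal, because tissues of 1 animal need not deviate alike, and the labels do not say.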
